A study of Sus scrofa with 6 samples.

Results

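DNA replication licensing genes are the genes whose proteins mark origins of replication and load the helicase there. The group comprised MCM2, MCM3, MCM4, MCM5, MCM6, MCM7, ORC1, CDC6, CDT1 and GMNN, taken by exact gene name, and all 10 were present among the 17678 genes of the deposited table. The material was porcine embryos made from in vitro matured oocytes without sperm, by electrical pulses and chemical treatment (parthenogenetic activation), and lysed at the 2-cell stage 32 h later. NC embryos had received a non-specific siRNA as oocytes. KD embryos had received siRNAs against SIN3A, the scaffold of a histone deacetylase corepressor complex. There were 3 NC and 3 KD libraries of polyadenylated RNA, each from 20 pooled embryos. All embryos of both groups therefore shared oocyte injection, activation and a uniparental genome, and a value is an average over a pool. The length of the polyadenylated tail of an mRNA was not measured, and its part in a value was not tested. The comparison asks which transcripts differed after SIN3A depletion.

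In G1, the origin recognition complex, of which ORC1 is the largest subunit, binds origins and recruits the ATPase CDC6. CDT1 then brings the hexameric ring of MCM2 to MCM7, the core of the replicative helicase, onto DNA. Geminin, the product of GMNN, binds CDT1 and blocks further loading until the next division, so that DNA is copied only once per cycle. Cleaving embryos replicate on proteins and mRNAs stored by the oocyte, since the embryonic genome is largely silent before its activation, which in pigs follows the 2-cell stage.

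In the RefSeq annotation of Sscrofa11.1, the build used by the authors, the 10 genes were spread over the genome. MCM2 was annotated on the minus strand of chromosome 13 from 72630378 to 72651270, and MCM3 on the minus strand of chromosome 7 from 46084648 to 46104425. MCM4 lies on the minus strand of chromosome 4 from 79674737 to 79686964, with PRKDC starting 410 bases away on the opposite strand. MCM5 is on an unplaced scaffold, from 1966090 to 1983967 on the plus strand. MCM6 lies on the plus strand of chromosome 15 from 15923638 to 15978587, and MCM7 on the minus strand of chromosome 3 from 8005890 to 8014047. Exons of MCM7 share 384 bases with AP4M1 on the opposite strand. AP4M1 had normalized values of at most 4.25 in any library, against at least 2503 for MCM7. Chromosome 6 carries both ORC1, on its plus strand between 159819302 and 159852306, and CDT1, on its minus strand between 893377 and 897706. ORC1 exons share 164 bases with an opposite-strand non-coding gene, whose reads were not separated here. CDC6 lies on the minus strand of chromosome 12 from 22101281 to 22118441, and GMNN on the plus strand of chromosome 7 from 19585968 to 19595346.

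E2F transcription factors control many genes of DNA synthesis in somatic cells, so the promoters were searched for the E2F letters TTTCCCGC and TTTGGCGC on both strands, from 250 bases before to 50 bases after each RefSeq gene start. A match was present in 4 of the 10 licensing genes, against 469 of 20667 protein-coding genes (2.3%). Each of these 4 promoters held 1 match. They are shown 5′ to 3′ in the direction of the gene with the match in capitals, to let the sites be compared. In MCM3 the reverse complement of the first motif was found. The first base of the match lay 128 bases before the start in MCM6 and 59 bases before it in CDT1, and at base 37 of MCM3 and base 38 of ORC1 counted from the start. A match is a description of letters and not evidence of binding.
MCM3 (chr7:46104376-46104405, minus strand): ggggttacttttgttgGCGGGAAAagtaga
MCM6 (chr15:15923499-15923528, plus strand): aggtctttgcaTTTGGCGCgaaatctctgc
ORC1 (chr6:159819322-159819351, plus strand): ggggcggggcctcggctTTTGGCGCgaatt
CDT1 (chr6:897747-897776, minus strand): gggcgcgtcccTTTCCCGCcaacccccggg

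A normalized value here is an estimate of the reads of a gene, scaled between libraries by the authors. The estimated depth was between 7800000 and 15800000 reads per library. SIN3A itself fell from 34576 ± 2534 in NC to 2841 ± 1591 in KD embryos (SD, n = 3 each), to 8.22% of the NC mean (adjusted p = 8.45e-06 by limma). Of 14 oocyte and early embryo markers, 12 were found, and their summed value was 75080 to 83289 in NC and 73894 to 89813 in KD libraries. FIGLA was the lowest of these, at most 11.8 in any library. KPNA7, an importin of the oocyte, was the highest, at 38666 ± 2212 in NC and 40964 ± 6694 in KD embryos, and BTG4, which acts in the removal of maternal mRNA, had the largest log2 fold change of the tested markers, -0.18, without passing the test. Of 12 cumulus cell markers, 9 were found, with a summed value of 59 to 92 in NC and 73 to 94 in KD libraries. LUM, AMH and TNFAIP6 were at 0 in at least 3 of the 6 libraries. PTX3 was at 0 in all 3 KD libraries and at most 2.21 in the NC libraries, near the floor in both groups. Only 3 of these markers reached a mean of 10, of which COL1A2 was the highest (38.16 ± 14.85 in NC, 41.03 ± 4.003 in KD) and INHBA had the largest log2 fold change, -0.66, also without passing the test. In such pools, fewer embryos' worth of RNA and less RNA per embryo cannot be told apart, since the values are scaled to each other.

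None of the 10 licensing genes differed between NC and KD embryos beyond the replicate error. With limma over all 11986 genes with a mean of at least 10, 0 of 10 had an adjusted p (Benjamini-Hochberg) below 0.05, where 0.159% of all tested genes had. At an unadjusted p below 0.05 the count was also 0 of 10, against 4.61% of all tested genes. No licensing gene had every KD value on one side of every NC value, against 9.79% of all tested genes. The log2 fold change, KD minus NC on the log2(value + 1) scale, was above 0 for 6 and below 0 for 4 of the genes, with a median of 0.078, beside 50.6% above 0 and a median of 0.003 over all tested genes. The median size of the change regardless of sign was 0.11 for the licensing genes and 0.12 for all tested genes. The 95% confidence intervals of the 10 genes ran from -0.54 at the lowest to 0.70 at the highest, so that a change of 1 on the log2 scale, which is 2-fold, lay outside the interval of each. The adjusted p was 0.997 for every one of them. Over the 15 alternative settings none of the 10 passed an adjusted p of 0.05, and the lowest value was 0.472, for MCM7. CDT1 was not tested under the filter of a mean of at least 100, which left 9 licensing genes. Without the variance trend no tested gene passed, SIN3A among them, so that setting says little about the licensing genes.

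**Figure D1:**
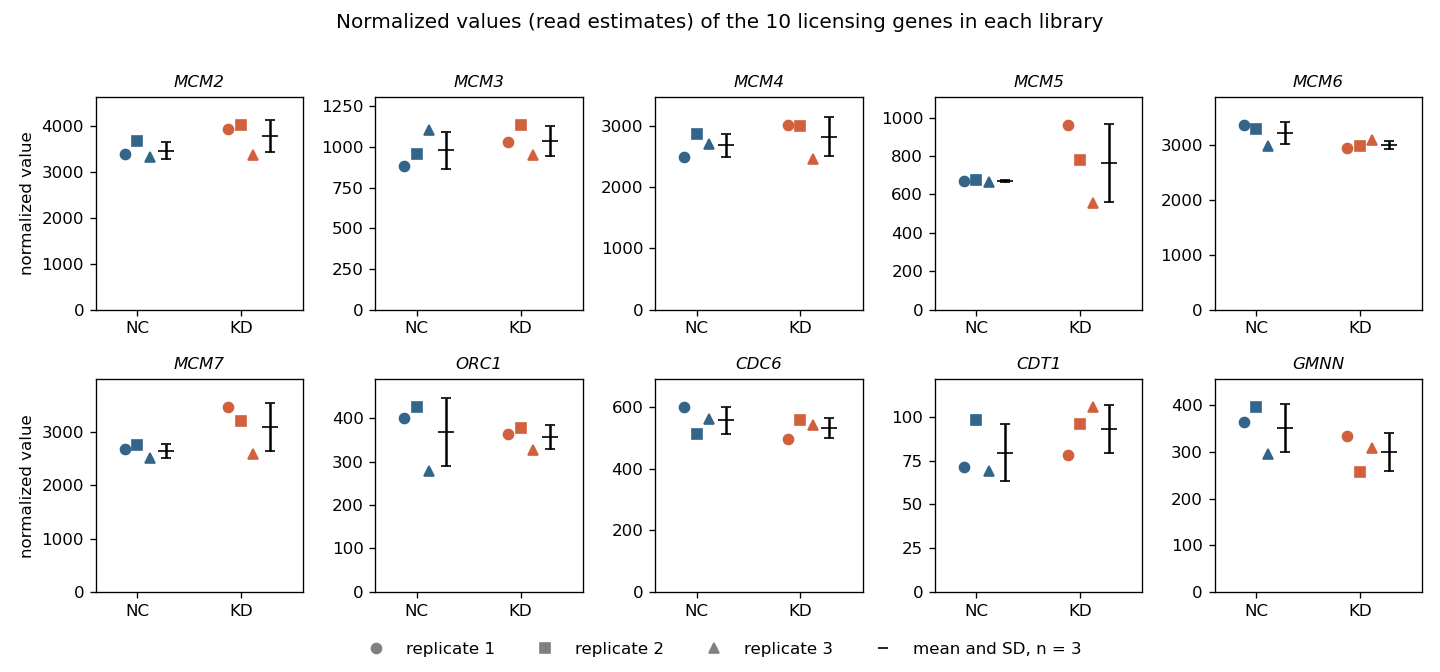
Normalized value (vertical axis, from 0) of each licensing gene in the 3 NC (blue) and 3 KD (orange) libraries, with the mean and SD beside each group. In all 10 panels the NC and KD points overlap.

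By mean normalized value, not corrected for length, the MCM subunits were the most abundant of the group. Of the 6, 5 had a higher mean in KD than in NC embryos, none of them past the test. For MCM2 the normalized values, always given in replicate order, were 3400, 3682 and 3326 (NC) and 3935, 4028 and 3381 (KD). KD replicates 1 and 2 were above all NC values and KD replicate 3 was within them. On the log2 scale MCM2 changed by 0.12 without passing the test (standard error 0.09, 95% interval -0.07 to 0.32). MCM4 had 2489, 2860 and 2700 in NC and 3013, 3004 and 2458 in KD libraries. The same KD replicates 1 and 2 were high and KD replicate 3 was below all NC values. Its log2 fold change was 0.07 (standard error 0.10, 95% interval -0.14 to 0.28).

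MCM7 had the largest change of the subunits. Its values were 2678, 2746 and 2503 in NC and 3464, 3213 and 2585 in KD libraries, a mean of 2642 ± 125 against 3087 ± 452 (SD, n = 3 each). Two-sided exact permutation gave p = 0.3, where 0.1 is the smallest that 3 against 3 allow. The limma log2 fold change was 0.21 (standard error 0.10, 95% interval -0.0066 to 0.44), with an unadjusted p of 0.0565 from the fit over all genes. The third KD library lay between the NC values, so that the groups overlapped.

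MCM5, which pairs with MCM2 at the gate through which DNA enters the ring, had the widest spread of the group in KD embryos. It had 671, 673 and 665 in NC and 961, 778.5 and 555 in KD libraries. The 3 NC values spread by 0.634% (SD as a percentage of the mean). Read counting alone would give 3.03% to 4.65% at the estimated depths of this gene in the NC and KD libraries together. The NC spread was below that range, so it understates the error. The KD values spread by 26.6%, with KD replicates 1 and 2 above and KD replicate 3 below all NC values. Its log2 fold change was 0.16 (standard error 0.15, 95% interval -0.17 to 0.48), and it was -0.027 without KD replicate 1.

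MCM3, the neighbour of MCM5 in the ring, had 881, 956 and 1101 in NC and 1030, 1134 and 947 in KD libraries. Values of the groups were interleaved, and the log2 fold change was 0.09 (standard error 0.11). MCM6 was the only subunit with a lower mean in KD, with 3359, 3286 and 2980 in NC and 2939, 2980 and 3080 in KD libraries. Only NC replicates 1 and 2 were above the KD range. Its log2 fold change was -0.10 (standard error 0.09, 95% interval -0.28 to 0.09).

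Among the licensing genes, replicate 3 was often the lowest of its group. KD replicate 3 was the lowest KD library for 5 of the 6 MCM subunits and the highest for MCM6, and the lowest for 6 of all 10 genes. NC replicate 3 was the lowest NC library for 4 of the 6 subunits and for 7 of all 10 genes. The same counts were not made over all tested genes, so the pattern is not shown to be particular to the licensing genes. Replicate 3 also had the lowest summed value of all genes in its group, 11084950 in NC and 11191788 in KD. A scaling factor from the trimmed mean of log ratios was 0.999 for both, within 0.998 to 1.005 over all 6 libraries. The part of the summed value in these counts was not tested. Relative to the NC mean, MCM7 was 31.1% and 21.6% higher in KD replicates 1 and 2 and differed by -2.2% in KD replicate 3. MCM5 differed by 43.4%, 16.2% and -17.1%, and MCM2 by 13.4%, 16.1% and -2.5%. KD replicate 3 also held the highest SIN3A value of the KD libraries, 4173 against 3271 and 1079, and an estimated 10200000 reads, against 11800000 and 15800000 in the others. The part of either in the difference was not tested. Without KD replicate 3, the groups did not overlap for 4 of the 10 genes (MCM2, MCM4, MCM5 and MCM7, all higher in KD), where 23.0% of all tested genes did not overlap, and 3 (MCM2, MCM5 and MCM7) had an unadjusted p below 0.05, where 6.21% of all had. MCM7 then had a log2 fold change of 0.34 with an adjusted p of 0.472 from limma. Without NC replicate 3, the groups did not overlap for 3 genes (MCM6, ORC1 and GMNN) against 20.1% of all, and GMNN, at a log2 fold change of -0.35, had an unadjusted p below 0.05, where 4.91% of all had. Without NC replicate 2, the groups did not overlap for 2 genes (CDC6 and CDT1), against 18.2% of all.

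**Figure D2:**
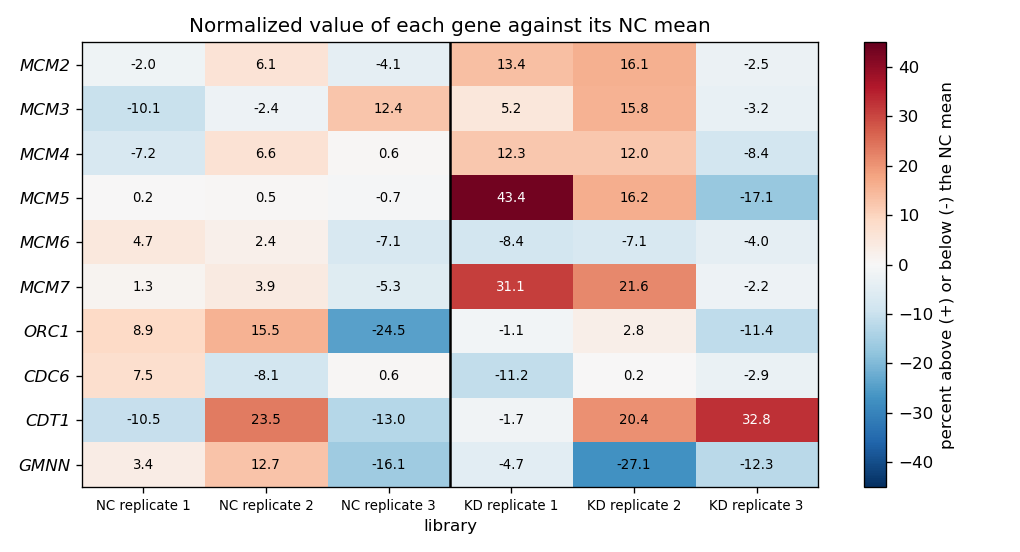
Percent by which each licensing gene (rows) lay above (red) or below (blue) its NC mean in each library (columns). KD replicates 1 and 2 are above the NC mean for MCM2, MCM3, MCM4, MCM5 and MCM7, and KD replicate 3 is below it for all 5.

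The genes of the loading step differed less than their replicates. ORC1 had 401, 425 and 278 in NC and 364, 378 and 326 in KD libraries, so that the KD values fell inside the NC range, which was set by the low NC replicate 3. Its log2 fold change was -0.03 (standard error 0.16, 95% interval -0.36 to 0.30), and it turned positive, at 0.048, 0.090 and 0.036, without NC replicate 1, NC replicate 2 or KD replicate 3. CDC6 had 600, 513 and 561 in NC and 495.5, 559 and 542 in KD libraries. Only KD replicate 1 was below the NC range, and the log2 fold change was -0.07 (standard error 0.12, 95% interval -0.31 to 0.18).

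CDT1, the loader that geminin holds in check, was the lowest of the group. Its values were 71.2, 98.2 and 69.2 in NC and 78.2, 95.8 and 106 in KD libraries, which corresponds to an estimated 67 to 134 reads. At that depth counting alone gives a spread of 8.65% to 12.2%, and the observed spread was 20.4% in NC and 14.9% in KD libraries. Its log2 fold change was 0.23 (standard error 0.22, 95% interval -0.23 to 0.70), the widest interval of the group.

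GMNN had 363, 396 and 295 in NC and 335, 256 and 308 in KD libraries, or 351 ± 51.6 against 300 ± 40.0 (SD, n = 3 each). NC replicates 1 and 2 were above all KD values, and NC replicate 3 was within them. Its log2 fold change was -0.23 (standard error 0.15, 95% interval -0.54 to 0.09, exact permutation p = 0.3). The ratio of GMNN to CDT1 normalized values was 5.10, 4.03 and 4.26 in NC and 4.28, 2.68 and 2.92 in KD replicates 1 to 3. KD replicate 1 lay between the NC ratios and the other two were below them.

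**Figure D3:**
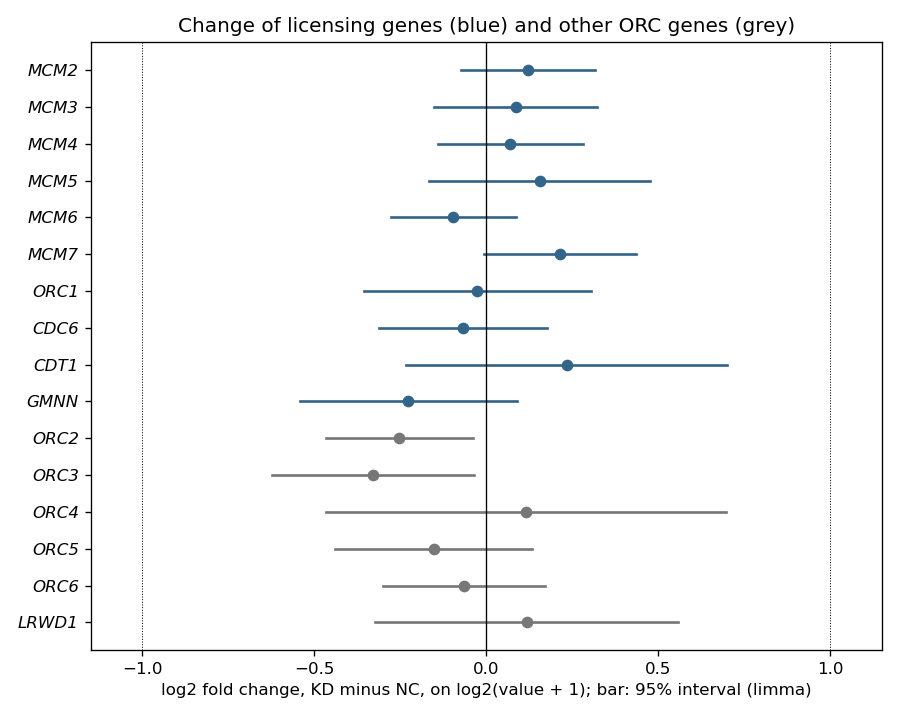
Log2 fold change (horizontal axis, KD minus NC) with its 95% interval from limma for the 10 licensing genes (blue) and 6 other ORC genes (grey); dotted lines mark a 2-fold change. All 10 blue intervals cross 0 and stay inside the dotted lines, and the intervals of ORC2 and ORC3 lie below 0.

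Levels were compared between genes after division by the length of the longest RefSeq mRNA, in normalized value per kb. In NC embryos the order was MCM6 (994 ± 62.4), MCM7 (894 ± 42.4), MCM2 (854 ± 46.3) and MCM4 (832 ± 57.6), whose neighbours in that order overlapped in their NC values (SD, n = 3). After a gap, MCM3 (257 ± 29.5) and MCM5 (247 ± 1.56) followed and overlapped with each other. CDC6 (113 ± 8.84) was next and overlapped with neither neighbour, then GMNN (87.4 ± 12.8) and ORC1 (71.7 ± 15.4), which overlapped, and last CDT1 (37.99 ± 7.74). MCM2, MCM4, MCM6 and MCM7 were higher per kb than 93.3% to 94.7% of the 10319 tested genes with a length, MCM3 and MCM5 than 77.4% and 76.6%, and CDT1 than 40.8%. The median of those genes was 61.4. The highest NC level was 26.2-fold the lowest. The order depended on the length used. With its shortest mRNA of 1076 bases in place of 4020, GMNN was at 326 per kb and took rank 5, above MCM3, and ORC1 (133) then lay above CDC6 (128). By coding length GMNN also took rank 5, CDC6 (331.5 per kb) lay above MCM5 (303.8), and MCM2 (1279) lay above MCM7 (1223). By NC mean, CDT1 was the lowest by each of the 3 lengths and MCM6 ranked highest. By shortest mRNA, however, MCM6 (994.2) and MCM7 (994.1) were nearly equal. In KD embryos MCM7 (1045 ± 153) had a higher mean per kb of longest mRNA than MCM6 (929.5 ± 22.4), with overlapping values. The values rest on Ensembl gene models and the lengths on RefSeq ones, and the part of that mismatch in the gap between the MCM subunits was not tested.

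**Figure D4:**
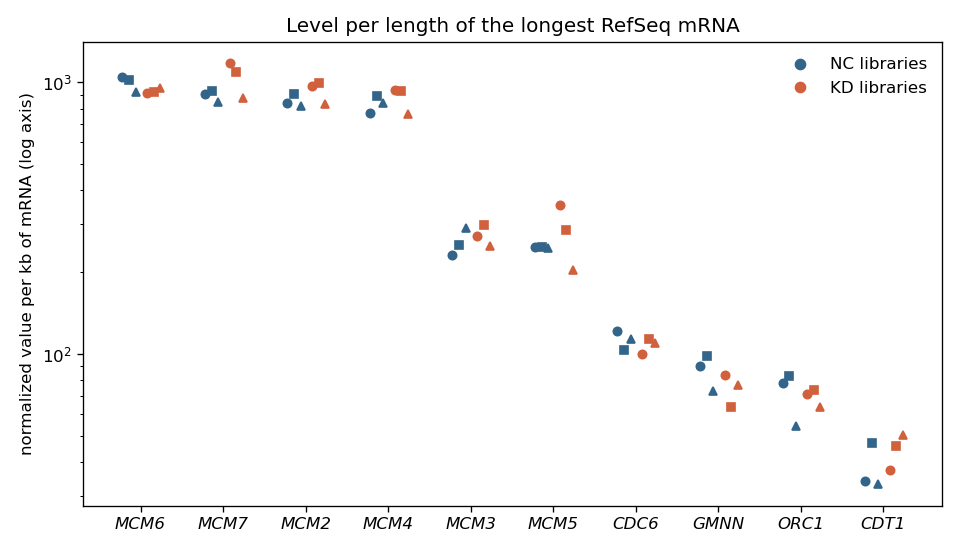
Normalized value per kb of the longest RefSeq mRNA (vertical log axis) in each NC (blue) and KD (orange) library (circle, square and triangle for replicates 1 to 3), with genes in the order of the NC mean. In all 6 libraries MCM2, MCM4, MCM6 and MCM7 lie above MCM3 and MCM5, and CDT1 is the lowest.

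The 6 MCM proteins enter the ring in equal number, so each transcript's share of the per-kb sum of MCM2 to MCM7 was followed within each library, which removes any scaling between libraries. The shares were 24.4% ± 1.3 for MCM6, 21.9% ± 0.54 for MCM7, 20.9% ± 0.39 for MCM2, 20.4% ± 1.1 for MCM4, 6.33% ± 0.86 for MCM3 and 6.05% ± 0.18 for MCM5 in NC embryos (SD, n = 3). In KD embryos they were 21.6% ± 2.6, 24.0% ± 1.4, 21.5% ± 0.47, 20.2% ± 0.49, 6.30% ± 0.38 and 6.43% ± 1.2 in the same order. MCM7 was the only subunit of the 6 whose shares did not overlap between groups, at 22.5%, 21.9% and 21.4% in NC and 25.4%, 24.1% and 22.6% in KD libraries. Of all tested genes, 9.79% did not overlap between groups in their values. The normalized values of MCM7 did overlap. The shares within a library also depend on each other, and the mean share of MCM6 was lower in KD embryos. For MCM7, the gap between the shares of the nearest NC and KD libraries was smaller than the spread within either group. The most abundant subunit was 4.13 ± 0.36 times the least abundant in NC and 4.26 ± 0.44 times in KD embryos. The per-kb sum of the 6 subunits was 4034, 4240 and 3961 in NC and 4610, 4519 and 3877 in KD libraries, with KD replicate 3 below and the other KD libraries above all NC sums.

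None of the other genes of the pathway passed the test in either direction. The lists held the remaining origin recognition genes, relatives of MCM and geminin, factors that fire licensed origins, regulators of CDT1, CDC6 and geminin turnover, and the replisome, and of their 61 tested genes 0 had an adjusted p below 0.05 by limma (0.159% of all tested genes), while 4 had an unadjusted p below 0.05 (4.61% of all tested genes), all lower in KD. Of these 4, 2 were origin recognition genes and 2 were replisome genes.

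ORC2 and ORC3, subunits of the same complex as ORC1, had every KD value below every NC value. They were 2 of 6 genes, where 9.79% of all tested genes did not overlap and 4.61% had an unadjusted p below 0.05. ORC2 had 1187, 1217 and 1250 in NC and 926, 1112 and 1036 in KD libraries, a log2 fold change of -0.25 (standard error 0.10, 95% interval -0.47 to -0.04). ORC3 had 378, 370 and 380 in NC and 276, 270 and 358 in KD libraries, a log2 fold change of -0.33 (standard error 0.14, 95% interval -0.62 to -0.04). Both had an adjusted p of 0.997 by limma, and the exact permutation p was 0.1 for each, the smallest possible. ORC4, ORC5, ORC6 and the ORC partner LRWD1 overlapped between groups, and the median log2 fold change of the 6 genes was -0.11. Per kb, ORC6 (611 ± 54.9) and ORC2 (320 ± 8.23) were the highest ORC transcripts of NC embryos, and ORC4 (8.95 ± 0.58) the lowest (SD, n = 3). ORC1 at 71.7 lay between ORC3 (94.3 ± 1.36) and ORC5 (58.1 ± 7.08). The values of ORC1 and ORC5 overlapped in NC libraries. This order rests on the longest RefSeq mRNA of each gene. By its shortest mRNA ORC1 was at 133 per kb, and the other ORC genes were not compared by that length.

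Of the MCM and geminin relatives, 4 of 6 were tested. MCMBP, which binds free MCM complexes, was the highest, at 4408 ± 303 in NC and 4295 ± 339 in KD embryos. The largest change was that of MCM8, a helicase of DNA repair, at -0.62 (standard error 0.45), from 32.2 ± 16.25 to 21.1 ± 11.08. The geminin relatives GMNC and MCIDAS, which act in multiciliated cells, had values of at most 10.5 in any library and a mean below 10, and were not tested.

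Among 13 origin firing genes, which include CDC45, the GINS subunits and the CDC7 kinase with DBF4, 3 had a log2 fold change above 0 and 10 below 0, with a median of -0.05. TICRR, needed to bring CDC45 to the helicase, was the highest, at 8724 ± 346 in NC and 8609 ± 748 in KD embryos. MTBP, its partner, had the largest change, -0.37 (standard error 0.20), from 151 ± 24.8 to 117 ± 22.5. In GINS2 and DONSON every KD value was below every NC value, which makes 2 of 13 against 9.79% of all tested genes. For DONSON the nearest NC and KD values were both 3007 when rounded.

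Of 14 turnover genes and kinases, 13 were found and 12 tested, and none had an unadjusted p below 0.05. CUL4B, a scaffold of ligases that degrade CDT1, was the highest, at 3692 ± 478 in NC and 3693 ± 50.5 in KD embryos. SKP1, an adaptor of the SKP2 ligase, had the largest change, -0.14 (standard error 0.10). Of 27 replisome genes 26 were tested, and 6 did not overlap between groups, 2 higher and 4 lower in KD, where 9.79% of all tested genes did not overlap. PCNA, the sliding clamp, was the highest, at 40846 ± 6962 in NC and 40630 ± 4526 in KD embryos. FEN1, which trims Okazaki fragments, had the largest change. Its values were 186, 225 and 260 in NC and 163, 182 and 174 in KD libraries, which is -0.36 on the log2 scale (standard error 0.16), and limma gave an adjusted p of 0.997.

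**Figure D5:**
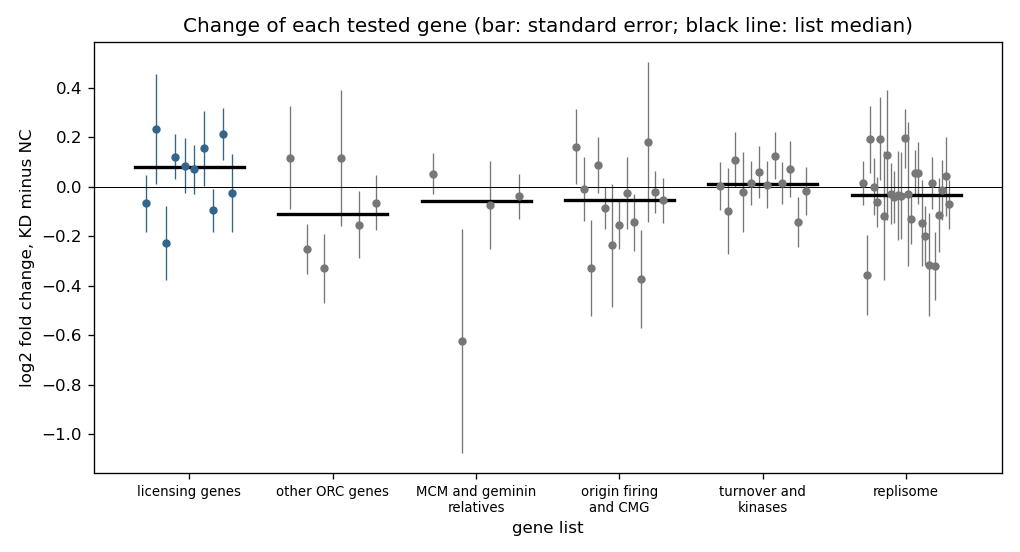
Log2 fold change (vertical axis, KD minus NC, with its standard error) of each tested gene by list, with the list median as a black line. The medians lie between -0.11 for the other ORC genes and 0.078 for the licensing genes.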

How the data were processed

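The authors quantified transcripts (Salmon 0.14.1, Sscrofa11.1) and normalized between libraries (DESeq2). The deposited signal is a normalized read estimate for each Ensembl gene and library. Groups and replicate numbers come from the sample labels. Between 60.0% and 73.3% of low values lay on multiples of a single step per library (within 0.1 of a step), so whole reads could not be restored and count models were not used. The step gave the estimated reads. Genes with a mean of at least 10 entered a limma fit (version 3.58.1, R 4.3.3) of log2(value + 1), with lmFit, eBayes with a variance trend and Benjamini-Hochberg adjustment, after a check on simulated data. A low value makes a fold change less precise and smaller on this scale. Single genes were compared by exact two-sided permutation with scipy 1.17.1. Where the table gave no name, 823 identifiers were named from a table of Ensembl symbols. Lengths, positions and promoters come from RefSeq by symbol, read with pyfaidx. In the lists, CCNA2, NLRP5, DPPA3, HAS2, FSHR and HSD3B1 were not found by name. The members and lists were chosen with earlier results of these data known. Named were all 10 members, SIN3A and, per other list, the genes past the threshold, the largest change and the highest mean; other genes were named after their values were seen. The study's text calls the 3 replicates independent without saying what was separate (oocyte collection, injection or culture), so p-values measure the spread between these pools. Added spike-in mRNAs were not used here. Alternatives were other pseudocounts, filters, scalings and variance settings, a block for the replicate number, and each library left out in turn.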

Additional observations from a re-analysis of the deposited data

How the results depend on the processing

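No licensing gene passed an adjusted p of 0.05 in any of the 15 alternatives in which it was tested. CDT1 fell out under the filter of a mean of at least 100. Of 149 gene-by-setting comparisons, 145 kept direction and side of the threshold. The 4 that reversed came from leaving out a library: MCM5 at -0.027 without KD replicate 1 (range -0.027 to 0.37 over the libraries left out), and ORC1 (range -0.22 to 0.090) at 0.048, 0.090 and 0.036 without NC replicate 1, NC replicate 2 and KD replicate 3. Leaving out 1 library moved other log2 fold changes by over 1.5 times without turning them: MCM2 0.07 to 0.20, MCM3 0.012 to 0.17, MCM4 0.018 to 0.17, MCM6 -0.15 to -0.06, MCM7 0.13 to 0.34, CDC6 -0.13 to -0.013, CDT1 0.14 to 0.39 and GMNN -0.35 to -0.12. The count of licensing genes without overlap was 0 in the settings with all libraries and ranged from 0 to 4 when 1 library was left out. The count of all tested genes past the adjusted p was 19, 0 without the variance trend (622 at an unadjusted p below 0.05) and 11 to 19 when 1 library was left out; the cause was not tested beyond the smaller number of samples. A block for the replicate number gave 26 such genes, the lowest adjusted p of a licensing gene was 0.785 (MCM7), and no adjusted call of a licensing gene changed; MCM7 alone had an unadjusted p below 0.05 there and without the filter on low values. Same-numbered libraries correlated at 0.109, 0.111 and 0.087 after subtraction of group means. Each library correlated best with its own number, a hint from the data and not from the design. The fold between the highest and lowest level per kb was 26.2, and 26.9 by coding length. Rescaling moved the median log2 fold change of all genes by at most 0.003. CDT1, with the fewest reads, had the least precise change.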
